A study of Mus musculus with 60 samples.

Results

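PBRM1 knockout NMuMG cells were examined after their first day of TGFβ1, as 3 libraries at 24 h and 3 libraries at 0 h. NMuMG, an epithelial line from mouse mammary gland, is widely used to study the epithelial to mesenchymal transition (EMT), in which epithelial cells loosen their junctions, rebuild their actin skeleton and secrete matrix. The 6 libraries were chosen by their labels, out of 60 in the series, and every gene of the count table was taken. PBRM1 knockout cells (sgPBRM1 in the count table) with 24 h of TGFβ1 at 5 ng/ml were compared with untreated PBRM1 knockout cells (0 h). The same step in control cells (sgCT in the count table), with 3 libraries at 24 h of the same TGFβ1 and 3 untreated ones at 0 h, served to show where the knockout differs. The libraries of both lines at 48 h and 72 h of TGFβ1 at 5 ng/ml, 3 each, entered the shared fit and are described for some genes. The knockout is abbreviated KO below. The sources used here do not say whether the KO cells are 1 clone or a pool. The labels call the libraries biological replicates, which may share a parental culture, so the p-values measure the spread between these cultures. No untreated 24 h group was used here, so TGFβ1 and a further day in culture cannot be told apart.

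TGFβ ligands bind a pair of receptor kinases, which phosphorylate SMAD2 and SMAD3. These enter the nucleus with SMAD4 and switch genes on or off together with partners such as AP-1, while the same receptors feed into MAPK and YAP signalling. In mammary epithelium TGFβ is known for slowing proliferation and for driving EMT through SNAI and ZEB repressors. PBRM1, also called BAF180 or polybromo, is the bromodomain subunit that defines PBAF, one form of the SWI/SNF complexes that slide nucleosomes with the energy of ATP.

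The KO libraries held 16.2 to 18.8 M counts at 24 h and 17.8 to 18.6 M at 0 h, and the 10 most abundant genes took 5.59% to 5.62% and 4.67% to 4.80% of them. Levels are given as CPM, which divides counts by library totals that TMM corrects for composition. The epithelial label was checked against 10 markers, whose summed level was 8811 to 8899 CPM at 24 h and 9361 to 9802 CPM at 0 h in KO cells. Krt8, Krt18, Cdh1 and Dsp were abundant, while Cldn7 was at 0 in all 6 KO libraries and Epcam averaged 0.0393 CPM at 24 h and 0.189 CPM at 0 h. Summed markers of other cell types stayed low: leukocyte markers totalled 5.11 to 6.22 CPM at 24 h and 5.57 to 6.43 CPM at 0 h (5 of 10 at 0 in both), fibroblast markers 25.7 to 26.9 and 20.4 to 22.8 CPM (3 of 10 at 0 in both), endothelial markers 1.18 to 1.70 and 2.40 to 3.13 CPM (2 of 10), and adipocyte markers 11.1 to 12.6 and 27.5 to 28.7 CPM (3 of 8). Summed luminal mammary markers were at 7636 to 7733 CPM and 7361 to 7750 CPM, with Pgr, Kit and Csn2 at 0 in both. Most of that sum was Krt8 and Krt18, while Krt19 averaged 56.7 CPM at 24 h and 1082 CPM at 0 h. The part of these shifts in the results below was not tested.

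Pbrm1 itself had 100, 99.1 and 98.5 CPM in KO cells at 24 h and 99.2, 93.3 and 99.1 CPM at 0 h, against 108, 103 and 104 CPM in control cells at 24 h and 115, 116 and 115 CPM at 0 h. The transcript was therefore present in every KO library, and its level in KO cells did not pass the test over the first day (log2 0.03 ± 0.041, adjusted p = 0.57, edgeR's quasi-likelihood test). A gene-level count cannot show a short guide-made deletion and so does not check the knockout label. The KO and control lines differed widely for some genes before treatment. At 0 h, Krt7, a simple-epithelium keratin, averaged 69.8 CPM in KO cells and 785 CPM in control cells, and the imprinted gene Peg3 averaged 12.5 and 258 CPM.

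Over the first day 8569 of 14345 tested genes changed in KO cells at an adjusted p under 0.05 (edgeR's quasi-likelihood test with Benjamini-Hochberg adjustment). Of these, 4304 rose (30.0% of the genes tested) and 4265 fell (29.7%), and a change of at least 2-fold was seen in 984 that rose (6.86%) and 1145 that fell (7.98%). TMM scaling left the median log2 fold change of all tested genes at -0.004. Scaling by library totals alone moved that median to -0.104 and turned the split into 3261 higher and 5579 lower, so that 36.9% of the calls were higher, against 50.2% with TMM. The changes below are given relative to the TMM median. Control cells moved by a similar count, with 4292 genes higher (29.9%) and 4232 lower (29.5%) at 24 h than at 0 h.

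The direction of the first-day response was largely shared between genotypes. Of 4304 genes that rose in KO and 4292 that rose in control cells, 3495 rose in both, and of 4265 and 4232 that fell, 3318 fell in both. Of the 984 genes that rose at least 2-fold in KO cells, 863 also rose in control cells and 1 fell, and their median log2 fold change was 1.86 in KO and 1.57 in control cells. Of the 1145 genes that fell at least 2-fold in KO cells, 979 fell in control cells and 1 rose, with medians of -1.81 in KO and -1.32 in control cells. The difference itself was tested as an interaction, the KO change minus the control change. It passed in 2637 genes, 1220 of them with a higher change in KO (8.50% of the genes tested) and 1417 with a lower one (9.88%). Library totals alone gave 949 higher and 1718 lower interactions, and dropping the low-count filter gave 862 and 1418. Among the 1145 genes with the large falls, the interaction was lower in KO for 367 and higher for 10. Among the 984 with the large rises, it was higher in KO for 208 and lower for 49. Since the 2-fold sets were picked on the KO change, which is part of the interaction, their medians and these counts favour KO by construction and are given as description. The same lean holds for list members and top genes named below for the size of their KO change. Changes of opposite direction were few: 56 genes rose in KO and fell in control cells, and 81 fell in KO and rose in control cells. Counts of list members below are to be read beside the shares of all genes tested. Those were 30.0% higher and 29.7% lower in KO cells, and 8.50% and 9.88% for the interaction.

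Genes of the TGFβ pathway itself moved within the first day. Of 12 ligands and latency proteins, all tested, 10 rose and 1 fell, with a median log2 fold change of 1.21 against -0.004 over all genes. Tgfb1, which encodes the ligand added to the medium, had 97.6, 98.7 and 99.3 CPM at 24 h and 44.3, 40.3 and 42.1 CPM at 0 h in KO cells. Every treated library was above every untreated one (log2 1.22 ± 0.045, adjusted p = 8.82e-33), and the change did not pass the interaction test against control cells (1.15 there, adjusted p = 0.563). Tgfb2 had 28, 29 and 28.5 CPM at 24 h and 5.73, 5.43 and 5.62 CPM at 0 h, a log2 change of 2.35 ± 0.079. That rise was larger than the one of 1.25 in control cells (interaction 1.09 ± 0.12, adjusted p = 6.45e-11). Inhba, the activin A subunit, showed the same pattern, at 401, 404 and 407 CPM at 24 h and 61.1, 56.1 and 54.1 CPM at 0 h in KO cells (log2 2.82 ± 0.043, interaction 0.82 ± 0.066, adjusted p = 2.57e-15). Lrrc32, which encodes the GARP protein that tethers latent TGFβ at the cell surface, had 21.2, 20.5 and 21 CPM at 24 h and 0.573, 0.679 and 0.597 CPM at 0 h. It averaged 277 CPM in KO cells at 72 h. Inhbb, the activin B subunit, fell (log2 -0.46 ± 0.090, adjusted p = 9.78e-06; chosen after its values were seen, as the member that fell).

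Of 11 tested receptors and co-receptors, 5 rose and 4 fell, against 30.0% higher and 29.7% lower over all genes tested. Tgfbr1, the type I receptor kinase, had 302, 303 and 306 CPM at 24 h and 267, 261 and 254 CPM at 0 h in KO cells, a small rise of 0.22 ± 0.031 on the log2 scale. Control cells had 268, 276 and 276 CPM at 24 h and 176, 179.9 and 175 CPM at 0 h, a rise of 0.63, and the interaction was lower in KO (-0.41 ± 0.044, adjusted p = 6.53e-11). KO cells thus started higher at 0 h and rose less. Tgfbr2, the type II receptor that binds ligand first, had 78.5, 75.9 and 72.9 CPM at 24 h and 87.9, 85.6 and 86.1 CPM at 0 h and fell (log2 -0.19 ± 0.039, adjusted p = 2.68e-05). The activin and BMP receptors Acvr1 and Bmpr2 both rose (log2 1.26 ± 0.037 and 1.23 ± 0.056), with 169 CPM at 24 h and 70.6 CPM at 0 h for Acvr1.

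Among 16 tested SMADs and pathway brakes, 12 rose and 1 fell, with a median of 0.61. The brakes led. Pmepa1, a membrane protein that holds back SMAD phosphorylation, had 541, 538 and 509.7 CPM at 24 h and 184, 176 and 168 CPM at 0 h in KO cells (log2 1.59 ± 0.033, adjusted p = 1.03e-45). Smad7, the inhibitory SMAD that recruits ubiquitin ligases to the receptor, had 121, 125 and 125 CPM at 24 h and 61.1, 63.4 and 59.9 CPM at 0 h (log2 1.01 ± 0.043). Skil, a SMAD corepressor, had 335, 331 and 327 CPM at 24 h and 168, 162 and 156 CPM at 0 h (log2 1.03 ± 0.030). In none of these did treated and untreated libraries overlap, and for Pmepa1 and Smad7, with changes of 1.60 and 1.02 in control cells, the interaction did not pass (-0.01 ± 0.046, adjusted p = 0.91 for Pmepa1, and -0.01 ± 0.061, adjusted p = 0.936 for Smad7). Smad3, the signal carrier, moved less, with 223 CPM at 24 h and 184 CPM at 0 h (log2 0.28 ± 0.033). Smad4, the shared partner, did not pass the test (log2 0.00 ± 0.039, adjusted p = 0.933).

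Of the direct TGFβ and SMAD3 targets, 19 of 22 tested rose and 2 fell, with a median of 1.10 in KO against 1.19 in control cells. Thbs1, which encodes thrombospondin 1, a secreted activator of latent TGFβ, had 3735, 3641 and 3682 CPM at 24 h and 74.5, 74.9 and 77.9 CPM at 0 h in KO cells. This was a rise of 5.60 ± 0.029 on the log2 scale (adjusted p = 1.88e-77). Control cells started slightly lower and rose less, with 1927, 1939 and 1925 CPM at 24 h and 69.8, 72 and 69.7 CPM at 0 h (interaction 0.83 ± 0.039, adjusted p = 5.26e-25). Col7a1, the collagen of anchoring fibrils, had 191, 223 and 222 CPM at 24 h and 5.73, 8.36 and 8.85 CPM at 0 h in KO cells, and its log2 change was 4.79 ± 0.11, against 4.81 in control cells, a difference that did not pass (interaction -0.02 ± 0.22, adjusted p = 0.968). The members that fell were Id1 and Cdkn1a. Id1, an inhibitor of DNA binding that TGFβ is known to repress in epithelial cells, had 47, 44.5 and 46.3 CPM at 24 h and 122, 124 and 126 CPM at 0 h in KO cells (log2 -1.43 ± 0.044). Cdkn1a, the p21 inhibitor of CDKs, had 147 CPM at 24 h and 169.9 CPM at 0 h (log2 -0.20 ± 0.036). Id2 fell further than Id1, with 99.1, 109 and 99.4 CPM at 24 h and 515, 533 and 511 CPM at 0 h in KO cells (log2 -2.34 ± 0.036, adjusted p = 2.54e-52), a deeper fall than in control cells (-2.13; interaction -0.21 ± 0.051, adjusted p = 0.00161). Id3 went the other way, at 18.5, 17.8 and 14.8 CPM at 24 h and 13.7, 14.5 and 13.7 CPM at 0 h, but its rise (log2 0.29 ± 0.092, adjusted p = 0.00444) did not pass with library totals alone (adjusted p = 0.062) or without the first KO 24 h library (adjusted p = 0.0585).

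EMT transcription factors rose in 12 of 14 tested members, with a median of 0.72 in KO and 0.73 in control cells. Snai1, a zinc finger repressor of Cdh1, had 37.8, 32.7 and 34.7 CPM at 24 h and 4.22, 5.12 and 4.33 CPM at 0 h in KO cells, a rise of 2.95 ± 0.099 on the log2 scale (adjusted p = 1.4e-34). Control cells had 16.3, 18.4 and 15.2 CPM at 24 h and 1.28, 1.63 and 1.91 CPM at 0 h, so the KO level was above the control level at each time, while the difference in change did not pass (interaction -0.43 ± 0.20, adjusted p = 0.147). Zeb2 behaved alike, at 77.5, 75.1 and 73.3 CPM at 24 h and 23.7, 21.7 and 21.8 CPM at 0 h in KO cells. Control cells averaged 39.9 CPM at 24 h and 11 CPM at 0 h (log2 1.75 ± 0.050 in KO; interaction -0.11 ± 0.084, adjusted p = 0.413). Zeb1 had 99.4, 97.7 and 101 CPM at 24 h and 36.6, 36.1 and 35.2 CPM at 0 h in KO cells (log2 1.47 ± 0.044). Runx1, a partner of SMADs, averaged 94.6 CPM at 24 h and 36.7 CPM at 0 h (log2 1.37 ± 0.051). Snai3, a less studied member of the Snail family, was the 1 member that fell, with 1.06, 0.885 and 0.616 CPM at 24 h and 3.13, 2.87 and 3.73 CPM at 0 h in KO cells (log2 -1.90 ± 0.28), against -0.59 in control cells (interaction -1.32 ± 0.35, adjusted p = 0.00424).

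**Figure D1:**
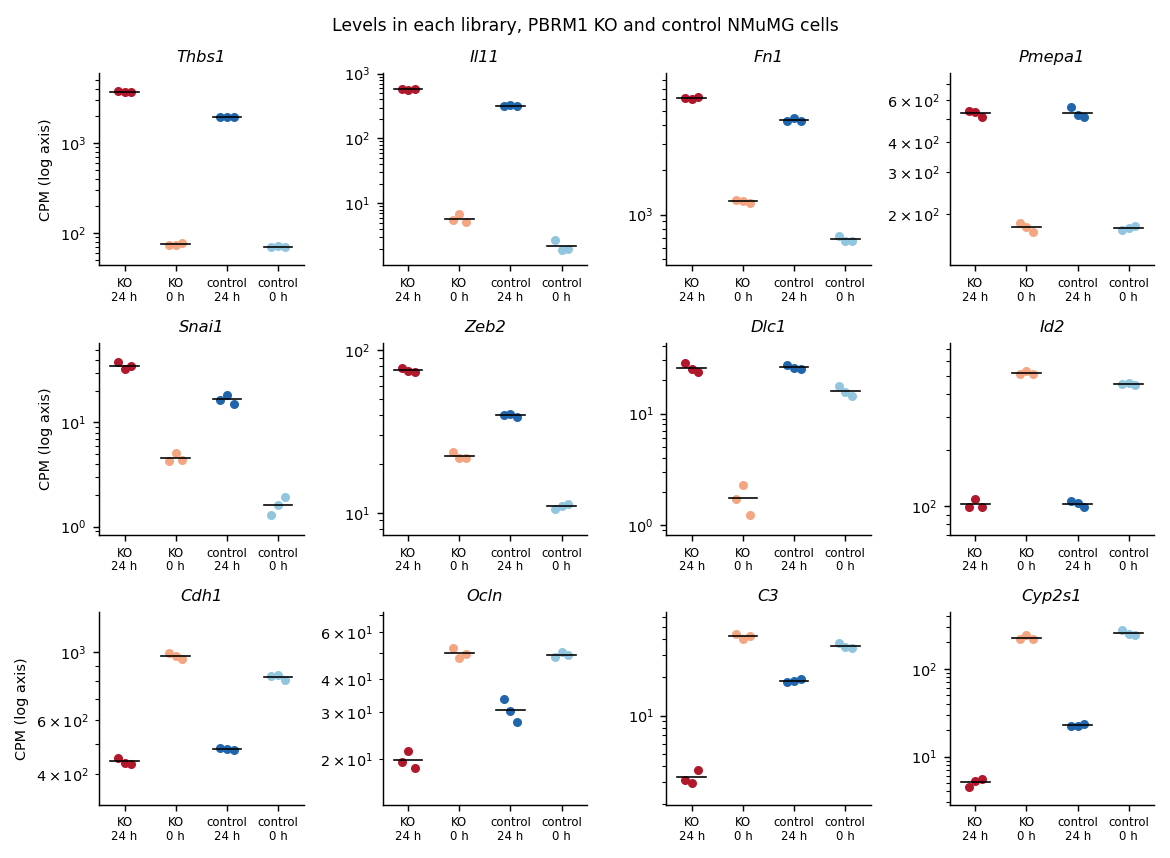
CPM of 12 genes on log axes in each library (points) with the group mean (bar), for PBRM1 KO cells at 24 h and 0 h and control cells at 24 h and 0 h of TGFβ1. Treated and untreated libraries are apart for each of the 12 genes in both genotypes, and the 24 h levels of C3 and Cyp2s1 lie lower in KO than in control cells.

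Epithelial transcription and splicing factors fell in 9 of 13 tested members and rose in 2, and the interaction was lower in KO for 7 and higher for 1. Ehf, an ETS factor of epithelial identity, had 5.53, 4.19 and 6.47 CPM at 24 h and 34.4, 31.2 and 31.5 CPM at 0 h in KO cells, with no overlap (log2 -2.58 ± 0.11, adjusted p = 2.16e-29). The log2 change in control cells was -1.28 (interaction -1.31 ± 0.15, adjusted p = 2.38e-10). Rbm47, an RNA-binding protein known to restrain EMT, had 29.9, 32.9 and 30 CPM at 24 h and 131, 122 and 125 CPM at 0 h (log2 -2.03 ± 0.048, interaction -0.59 ± 0.067, adjusted p = 2.23e-10). Klf5, a Krüppel-like factor of luminal epithelium, had 23.9, 26.1 and 22.4 CPM at 24 h and 99.9, 91.7 and 94.8 CPM at 0 h (log2 -1.98 ± 0.058, interaction -0.49 ± 0.081, adjusted p = 3.03e-06). All 3 genes fell in both genotypes and fell further in KO cells, and they were named for the size of their KO change. The members that rose were Gata3, at 3.4, 4.25 and 2.89 CPM at 24 h and 1.09, 0.94 and 0.497 CPM at 0 h, and Foxa1, at 7.45, 8.08 and 7.58 CPM at 24 h and 2.5, 1.67 and 2.68 CPM at 0 h, both luminal transcription factors at low levels. For Gata3 the rise of 2.06 ± 0.25 in KO cells was larger than that of 0.68 in control cells (interaction 1.38 ± 0.39, adjusted p = 0.00699).

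Tight junction and polarity genes lost transcript, and more so in KO cells. Of 17 tested, out of 24 on the list, 13 fell and 4 rose, the median was -0.75 in KO and -0.46 in control cells, and the interaction was lower in KO for 12 and higher for 0. Ocln, the tight junction strand protein occludin, had 19.5, 21.4 and 18.4 CPM at 24 h and 52.2, 48 and 49.9 CPM at 0 h in KO cells. Control cells had 33.7, 30.4 and 27.6 CPM at 24 h and 48.6, 50.6 and 49.2 CPM at 0 h. Both lines started alike, and the KO libraries ended below every control library (log2 -1.34 ± 0.068 in KO, interaction -0.64 ± 0.093, adjusted p = 1.92e-07). Cgn, the cytoplasmic plaque protein cingulin, had 48, 44.8 and 43.8 CPM at 24 h and 119, 120 and 119.5 CPM at 0 h (log2 -1.39 ± 0.045, interaction -0.52 ± 0.059, adjusted p = 2.59e-10). Crb3, an apical polarity protein, had 2.18, 2.54 and 3.2 CPM at 24 h and 13.4, 13.4 and 12 CPM at 0 h (log2 -2.30 ± 0.13, interaction -1.28 ± 0.17, adjusted p = 2.12e-08). Tjp3, which encodes ZO-3, had 0.372, 0.118 and 0.123 CPM at 24 h and 5, 4.7 and 4.42 CPM at 0 h (log2 -4.44 ± 0.41, and -5.21 without the first KO 24 h library; interaction -0.85 ± 0.69, adjusted p = 0.456, which did not pass). Cldn4 stood apart: this claudin had 8.19, 8.32 and 7.33 CPM at 24 h, and only 3 counts in all at 0 h, a ratio of 155.2 (95% counting interval 52.7 to 755.4), which covers counting error only.

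Adherens junction and desmosome genes did not move as 1 block, with 8 of 18 tested higher and 9 lower. Cdh1, E-cadherin, the cadherin of epithelial adherens junctions, had 451, 435 and 431 CPM at 24 h and 992, 969 and 947 CPM at 0 h in KO cells (log2 -1.14 ± 0.028, adjusted p = 1.7e-41). Control cells had 486, 481 and 478 CPM at 24 h and 832, 843 and 808 CPM at 0 h. KO cells therefore started higher and ended lower, a deeper fall than in control cells (interaction -0.36 ± 0.040, adjusted p = 9.12e-11). Cdh2, N-cadherin, had 187, 191 and 179 CPM at 24 h and 122, 114 and 107 CPM at 0 h in KO cells (log2 0.70 ± 0.035). Dsp, the desmosome plaque protein desmoplakin, fell, with 629, 613 and 638 CPM at 24 h and 1055, 1010 and 978 CPM at 0 h (log2 -0.69 ± 0.030, interaction -0.39 ± 0.042, adjusted p = 6.32e-11). Pkp1, a desmosomal plakophilin, rose instead, at 171, 177 and 165 CPM at 24 h and 4.17, 3.92 and 2.93 CPM at 0 h in KO cells (log2 5.54 ± 0.078, adjusted p = 3.21e-54).

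The intermediate filaments changed unevenly. Krt19, a keratin of simple epithelium, had 47.7, 54.9 and 67.4 CPM at 24 h and 1022, 1173 and 1051 CPM at 0 h in KO cells, a log2 change of -4.26 ± 0.065, against -3.27 in control cells (interaction -0.99 ± 0.087, adjusted p = 5.58e-14). Of the main keratin pair, Krt18 rose, with 3293, 3294 and 3256 CPM at 24 h and 2390, 2432 and 2332 CPM at 0 h (log2 0.46 ± 0.022), and Krt8 had 4265, 4315 and 4377 CPM at 24 h and 4028, 4104 and 3934 CPM at 0 h (log2 0.10 ± 0.023, adjusted p = 0.000104; 0.00 and adjusted p = 0.929 with library totals alone). Vim, vimentin, the mesenchymal filament, was already abundant and did not pass, with 2038, 1998 and 2041 CPM at 24 h and 2060, 2064 and 1984 CPM at 0 h in KO cells and overlapping libraries (log2 -0.01 ± 0.024, adjusted p = 0.816; -0.11 and adjusted p = 4.91e-05 with library totals alone). In control cells Vim rose by 0.24 (interaction -0.25 ± 0.035, adjusted p = 8.64e-08). Nes, nestin, another filament protein, rose more in KO cells, to 30.8 CPM at 24 h against 6.3 CPM at 0 h (log2 2.29 ± 0.089, interaction 0.91 ± 0.15, adjusted p = 5.33e-06).

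Matrix genes rose strongly. Of 12 tested fibrillar and fibril-associated collagens, 9 rose and 2 fell, with a median of 2.72 in KO and 2.66 in control cells. Col1a1, the type I collagen chain, had 128, 133 and 127 CPM at 24 h and 4.32, 5.9 and 5.87 CPM at 0 h in KO cells (log2 4.59 ± 0.067, adjusted p = 2.43e-53). Col5a3, a type V chain, had 48.9, 52.1 and 47.6 CPM at 24 h and 0.261, 0.0522 and 0.398 CPM at 0 h (log2 7.65 ± 0.15; 8.24 without the third KO 0 h library). The members that fell were the type VI chains Col6a1 and Col6a2, both chosen after their values were seen. Col6a2 had 19.7, 19.8 and 17.9 CPM at 24 h and 71.8, 69.8 and 69.7 CPM at 0 h in KO cells (log2 -1.88 ± 0.064, adjusted p = 2.62e-34), a deeper fall than the -0.87 of control cells (interaction -1.01 ± 0.10, adjusted p = 1.79e-11). The interaction was lower in KO for 5 of the 12 collagens and higher for 0.

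Of 16 tested matricellular and matrix glycoproteins, 13 rose and 2 fell. Fn1, fibronectin, was among the most abundant transcripts of the cells, with 6114, 6004 and 6149 CPM at 24 h and 1255, 1232 and 1203 CPM at 0 h in KO cells (log2 2.31 ± 0.030, adjusted p = 1.06e-55). Control cells had 4290, 4452 and 4279 CPM at 24 h and 722, 667 and 660.1 CPM at 0 h. KO levels were above control levels at both times, and the KO rise was the smaller one (interaction -0.36 ± 0.042, adjusted p = 4.68e-10). Has2, the hyaluronan synthase of migrating cells, had 31.6, 32.6 and 27.7 CPM at 24 h and 0.156, 0.104 and 0 CPM at 0 h in KO cells, against 9.09 CPM at 24 h and 0.104 CPM at 0 h in control cells (log2 8.38 ± 0.22 in KO; interaction 2.04 ± 1.0, adjusted p = 0.165, which did not pass). Leaving out the first KO 0 h library gave 9.05 for Has2. Fbln2, fibulin 2, had 3769, 3718 and 3715 CPM at 24 h and 1800, 1745 and 1761 CPM at 0 h (log2 1.08 ± 0.023). The basement membrane list was mixed, with 6 higher and 7 lower of 16, against 30.0% and 29.7% of all genes tested. Within it the collagen chains Col18a1, Col4a1 and Col4a2 rose (log2 1.40 ± 0.026, 0.91 ± 0.027 and 1.03 ± 0.031), and the nidogens Nid1 and Nid2, linkers of laminin and collagen IV, fell (log2 -2.46 ± 0.31 and -2.39 ± 0.20).

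Proteases and adhesion receptors followed. Of 17 tested metalloproteinases and inhibitors, 13 rose and 3 fell. Mmp9, gelatinase B, had 40, 40 and 34.6 CPM at 24 h and 0.261, 0.0522 and 0.149 CPM at 0 h in KO cells (log2 7.90 ± 0.19, adjusted p = 2.61e-42). Control cells reached 2.18, 3.4 and 2.04 CPM at 24 h with 2 counts in all at 0 h, a ratio of 72.0 (95% counting interval 19.6 to 599.5), so the interaction was poorly measured (1.98 ± 1.7, adjusted p = 0.479). Mmp10, stromelysin 2, had 6.65, 6.61 and 7.33 CPM at 24 h and 0.365, 0.522 and 0.298 CPM at 0 h in KO cells (log2 4.10 ± 0.24). Plasminogen activators also rose in KO cells. Plau, urokinase, had 20.1, 19.4 and 21.7 CPM at 24 h and 10.1, 9.4 and 10.8 CPM at 0 h (log2 1.01 ± 0.092), more than in control cells (interaction 0.70 ± 0.14, adjusted p = 0.000163). Plat, tissue plasminogen activator, chosen after its values were seen, rose in KO cells to 55.1 CPM at 24 h against 36 CPM at 0 h (log2 0.61 ± 0.056), and fell by 0.43 in control cells (interaction 1.04 ± 0.079, adjusted p = 1.52e-16). Among 16 tested integrin subunits, 9 rose and 5 fell, against 30.0% and 29.7% of all genes tested. Itga5 and Itgb3, subunits of fibronectin and vitronectin receptors, led the rise, with 355, 358 and 359 CPM at 24 h and 39.3, 39.6 and 39.3 CPM at 0 h for Itga5 (log2 3.18 ± 0.036) and 308 CPM at 24 h and 56.5 CPM at 0 h for Itgb3 (log2 2.45 ± 0.036). Itga1, a collagen receptor subunit, fell, at 6.1 CPM at 24 h and 25.9 CPM at 0 h (log2 -2.09 ± 0.099).

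**Figure D2:**
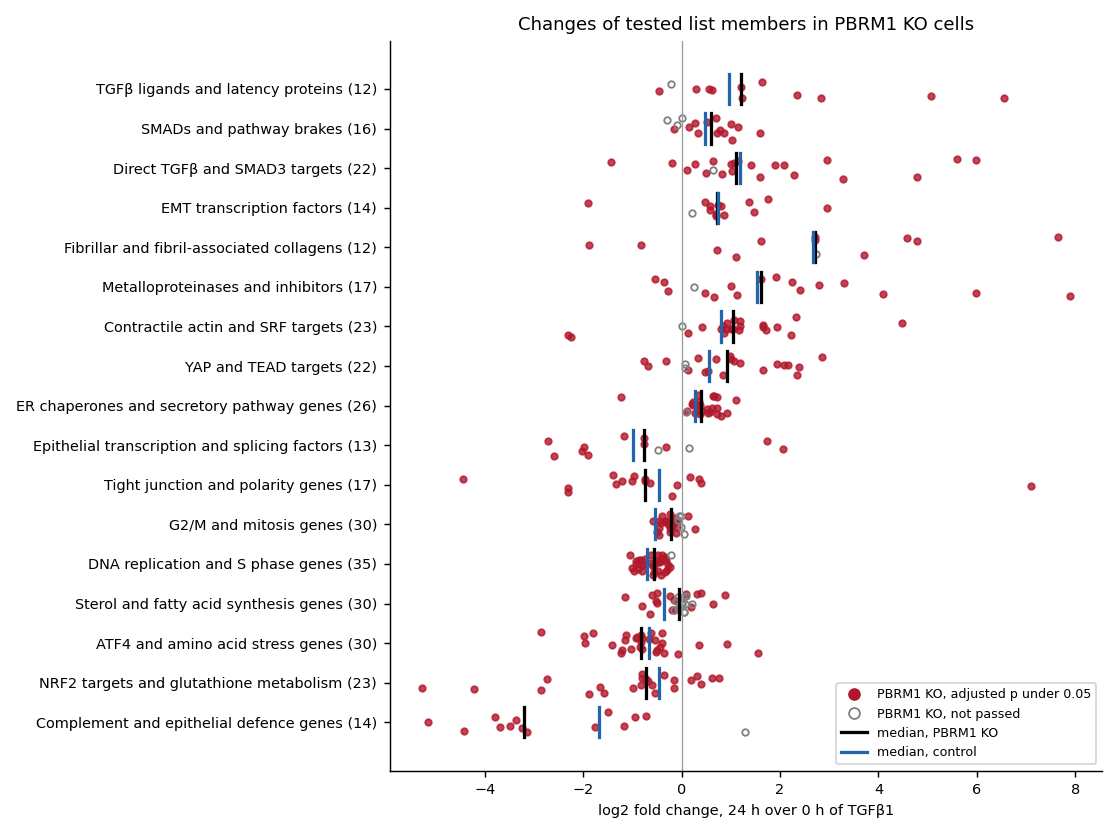
Log2 fold change from 0 h to 24 h of TGFβ1 in PBRM1 KO cells for the tested members of 17 gene lists (number tested in brackets), 1 point per gene, filled where the adjusted p was under 0.05; bars give the list's median in KO (black) and control cells (blue). Collagens have a median of 2.72 and complement and defence genes one of -3.20 in KO cells, and the control median lies below the KO median for G2/M genes (-0.22 in KO, -0.55 in control) and above it for complement genes (-3.20 in KO, -1.68 in control).

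Contractile actin genes and other targets of SRF, the serum response factor that reads actin assembly, rose in 20 of 23 tested members, with a median of 1.04 in KO and 0.80 in control cells. The interaction was higher in KO for 13 and lower for 3, against 8.50% and 9.88% of all genes tested. Zyx, zyxin, a focal adhesion protein, had 391, 393 and 401 CPM at 24 h and 81.6, 73.3 and 79.9 CPM at 0 h in KO cells (log2 2.34 ± 0.035, interaction 0.22 ± 0.051, adjusted p = 0.001). Myh9, the heavy chain of nonmuscle myosin IIA, had 4738, 4696 and 4736 CPM at 24 h and 2328, 2251 and 2187 CPM at 0 h (log2 1.07 ± 0.025, interaction 0.15 ± 0.035, adjusted p = 0.000633). Acta2, smooth muscle actin, was still rare at this time, with 2.55, 2.24 and 2.53 CPM at 24 h and 0.104, 0.0522 and 0.149 CPM at 0 h in KO cells (log2 4.48 ± 0.39). It averaged 16.4 CPM at 48 h and 48.5 CPM at 72 h. Mylk and Lima1 fell (log2 -2.26 ± 0.074 and -2.31 ± 0.046); Mylk encodes myosin light chain kinase and Lima1 the actin-bundling protein eplin. Mylk was also most of the summed level of 10 basal mammary markers, which was 17.0 to 18.1 CPM at 24 h and 62.3 to 69.4 CPM at 0 h in KO cells, with Trp63 at 0 throughout. The other 3 tested basal markers, Acta2, Krt17 and Cnn1, rose, although Krt17 and Cnn1 averaged only 0.499 and 0.423 CPM at 24 h.

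SRF binds the CArG box, and 7 of 25 RefSeq promoter windows of the SRF list held one (28%, against 1.41% of 12939 windows of all tested genes; the list was built from known SRF targets, so this is description). Windows run from 250 bases before to 50 after an annotated start, and both strands were searched. Srf and Cnn2 are shown because their windows hold CArG boxes, in capitals, close to the start; both were chosen after their values were seen. The sequences are RefSeq's, build GRCm38.p6, written 5′ to 3′ on the gene's strand.
Srf, chr17:46556113-46556412, minus strand: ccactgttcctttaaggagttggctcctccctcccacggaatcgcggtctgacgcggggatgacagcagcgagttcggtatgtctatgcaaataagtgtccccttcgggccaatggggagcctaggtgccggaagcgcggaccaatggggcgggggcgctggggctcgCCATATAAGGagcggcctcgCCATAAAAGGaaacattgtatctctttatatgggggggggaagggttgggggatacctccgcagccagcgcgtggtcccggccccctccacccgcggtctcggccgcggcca
Cnn2, chr10:79988350-79988649, plus strand: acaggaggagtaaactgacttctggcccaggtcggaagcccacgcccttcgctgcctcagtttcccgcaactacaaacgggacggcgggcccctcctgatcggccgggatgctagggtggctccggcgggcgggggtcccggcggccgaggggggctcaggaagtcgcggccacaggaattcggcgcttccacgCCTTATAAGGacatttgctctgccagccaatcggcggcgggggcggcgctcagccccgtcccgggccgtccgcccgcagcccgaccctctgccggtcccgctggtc
The Srf window holds a pair of CArG boxes, 82 and 62 bases before the start, and Srf had 56.9, 56.2 and 57.6 CPM at 24 h and 29.5, 25.9 and 30.1 CPM at 0 h in KO cells (log2 1.00 ± 0.054, adjusted p = 1.9e-24). Cnn2, calponin 2, has 1 box 56 bases before the start and had 289.8, 275 and 282 CPM at 24 h and 90.6, 89.6 and 88.4 CPM at 0 h (log2 1.66 ± 0.036). Both rose more in KO than in control cells, where the changes were 0.76 and 1.13 (interaction 0.23 ± 0.074, adjusted p = 0.0184 for Srf, and 0.52 ± 0.052, adjusted p = 2.98e-12 for Cnn2).

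YAP and TEAD targets, which report on cell spreading and Hippo signalling, rose in 17 of 22 members and fell in 3, with a median of 0.91 in KO and 0.55 in control cells. The interaction was higher in KO for 12 and lower for 3, against 8.50% and 9.88% of all genes tested. Ctgf, connective tissue growth factor, had 1719, 1710 and 1659 CPM at 24 h and 405, 402 and 392 CPM at 0 h in KO cells. Control cells had 1173, 1122 and 1104 CPM at 24 h and 332, 331 and 338 CPM at 0 h (log2 2.09 ± 0.026 in KO, interaction 0.32 ± 0.036, adjusted p = 2.41e-10). Cyr61, its relative, had 656, 651 and 656 CPM at 24 h and 91.9, 84.4 and 95.4 CPM at 0 h in KO cells (log2 2.85 ± 0.035, interaction 0.72 ± 0.049, adjusted p = 1.97e-18). Ankrd1, a muscle ankyrin repeat protein and common YAP reporter, had 1052, 1057 and 1033 CPM at 24 h and 234, 235 and 236 CPM at 0 h (log2 2.15 ± 0.032, interaction 0.81 ± 0.044, adjusted p = 1.38e-22). Control cells averaged 591 CPM at 24 h and 135 CPM at 0 h for Cyr61, and 996 and 393.5 CPM for Ankrd1. Both genes thus started lower in KO cells, and their 24 h levels differed less between the lines than those of Ctgf. In all 3 genes the KO libraries at 24 h stood above the untreated libraries of both lines and the control libraries at 24 h.

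AP-1 subunits and immediate early genes rose in 17 of 21 tested members and fell in 1. Jun had 104, 99.2 and 102 CPM at 24 h and 16.6, 17 and 17.4 CPM at 0 h in KO cells (log2 2.58 ± 0.053, adjusted p = 1.04e-45). Atf3, a stress-induced AP-1 relative, had 15.5, 17 and 17.3 CPM at 24 h and 6.3, 4.39 and 5.67 CPM at 0 h in KO cells. Control cells had 39.3, 39.4 and 38.1 CPM at 24 h and 11.4, 12.2 and 11.6 CPM at 0 h. Atf3 levels were lower in KO than in control cells at both times, and the log2 changes were 1.60 ± 0.098 in KO and 1.73 in control cells, a difference that did not pass (interaction -0.12 ± 0.13, adjusted p = 0.586). Ier3, a survival gene of the early response, rose more in KO cells, with 254, 245 and 263 CPM at 24 h and 72.5, 66.6 and 77.6 CPM at 0 h (log2 1.81 ± 0.042, interaction 0.86 ± 0.058, adjusted p = 1.97e-18). Control cells averaged 203 CPM at 24 h and 105 CPM at 0 h, so Ier3 started lower and ended higher in KO cells. MAPK feedback genes, phosphatases and Sprouty proteins that damp ERK signalling, rose in 9 of 18 and fell in 4 (2 without the low-count filter). Their interaction was higher in KO for 10 and lower for 1, against 8.50% and 9.88% of all genes tested. Dusp1, a MAPK phosphatase, had 134, 129.7 and 145 CPM at 24 h and 47.3, 45.9 and 47.7 CPM at 0 h in KO cells (log2 1.53 ± 0.045, against 0.80 in control cells; interaction 0.73 ± 0.062, adjusted p = 1.48e-14).

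Secreted growth factors were part of the response. Of 28 tested ligands and receptors, 14 rose and 12 fell, against 30.0% and 29.7% of all genes tested. Il11, a cytokine of the IL-6 family known as a TGFβ target, had 581, 558 and 587 CPM at 24 h and 5.47, 6.9 and 5.07 CPM at 0 h in KO cells (log2 6.63 ± 0.054, adjusted p = 8.77e-67). It averaged 321 CPM at 24 h and 2.19 CPM at 0 h in control cells, where the log2 change was larger (7.19; interaction -0.56 ± 0.15, adjusted p = 0.00481, and -0.42 with adjusted p = 0.0649 without the second KO 0 h library). Fgfr1, a fibroblast growth factor receptor, had 21.7, 20.4 and 19.6 CPM at 24 h and 0.886, 1.15 and 0.796 CPM at 0 h (log2 4.44 ± 0.14). Pdgfrb, the receptor for PDGF-B, had 3.83, 4.07 and 3.57 CPM at 24 h and no count at 0 h, at least 74.6-fold higher, with the untreated group set to 3 counts in all. Fgf1 fell, with 8.35, 8.91 and 7.33 CPM at 24 h and 72.5, 78.5 and 70.4 CPM at 0 h (log2 -3.17 ± 0.079, interaction -1.18 ± 0.11, adjusted p = 1.26e-12). Fgfr2 and Erbb3, receptors of epithelial growth factors chosen after their values were seen, fell as well and fell further in KO than in control cells, with 2.51 CPM at 24 h and 19.1 CPM at 0 h for Fgfr2 (log2 -2.93 ± 0.14, interaction -1.38 ± 0.17, adjusted p = 2.83e-09) and 0.977 CPM at 24 h and 8.32 CPM at 0 h for Erbb3 (log2 -3.08 ± 0.20, interaction -1.0 ± 0.26, adjusted p = 0.0036). In the Notch list 6 of 13 rose and 5 fell, against the same 30.0% and 29.7%. Dll4, a Notch ligand, had 97.6, 102 and 92.9 CPM at 24 h and 1.72, 2.93 and 2.44 CPM at 0 h in KO cells. Control cells had 25.5, 23.7 and 24.5 CPM at 24 h and 1.89, 1.3 and 1.69 CPM at 0 h (log2 5.36 ± 0.086 in KO, interaction 1.46 ± 0.21, adjusted p = 2.34e-07). Notch1 fell, at 6.28, 6.67 and 6.16 CPM at 24 h and 38.8, 42.7 and 37 CPM at 0 h (log2 -2.63 ± 0.11, interaction -0.74 ± 0.15, adjusted p = 0.000209).

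The AP-1 motif TGANTCA, searched on both strands, was in 12.7% of 921 promoter windows of the genes at least 2-fold higher in KO cells, in 10.4% of 1019 windows of those at least 2-fold lower, and in 5.74% of all 12939. The SMAD motif CAGACA was in 23%, 19.7% and 16.3% of the same windows. The CArG box was in 3.58%, 1.37% and 1.41%, the CHR motif in 10.7%, 14.7% and 12.1%, and CCAAT in 34.9%, 35.1% and 37.6%. Windows were found for 665, 785 and 10118 genes of the 3 sets. These shares are descriptions of letters and show no binding. The windows of Il11 and Mmp10, both induced above, are shown as examples that hold an AP-1 motif near the start, in capitals, from the same RefSeq build.
Il11, chr7:4778092-4778391, minus strand: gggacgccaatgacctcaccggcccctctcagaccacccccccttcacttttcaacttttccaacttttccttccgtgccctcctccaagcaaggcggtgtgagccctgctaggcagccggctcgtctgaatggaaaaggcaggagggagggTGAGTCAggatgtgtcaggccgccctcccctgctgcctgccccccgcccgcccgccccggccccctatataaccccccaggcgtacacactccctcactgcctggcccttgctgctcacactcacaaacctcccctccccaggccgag
Mmp10, chr9:7502092-7502391, plus strand: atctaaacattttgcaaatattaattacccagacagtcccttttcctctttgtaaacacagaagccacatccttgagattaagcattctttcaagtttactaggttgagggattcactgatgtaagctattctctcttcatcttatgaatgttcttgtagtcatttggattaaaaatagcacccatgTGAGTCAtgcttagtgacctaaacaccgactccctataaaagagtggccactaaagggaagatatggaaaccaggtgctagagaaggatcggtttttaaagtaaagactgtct
The match starts 98 bases before the start in Il11 and 63 bases before it in Mmp10.

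Inflammatory signals moved in opposite ways for chemokines and for epithelial defence. Of 24 tested chemokines, cytokines and NF-κB targets, 16 rose and 7 fell, and the interaction was higher in KO for 9 and lower for 1. Ccl7, a monocyte chemokine, had 26.5, 27 and 26.7 CPM at 24 h and 1.3, 1.72 and 3.03 CPM at 0 h in KO cells (log2 3.71 ± 0.14). Il33, an alarmin of epithelial nuclei, fell, with 9.84, 10.6 and 11.4 CPM at 24 h and 109, 100.2 and 99.1 CPM at 0 h (log2 -3.28 ± 0.070), less than in control cells (-3.98; interaction 0.70 ± 0.12, adjusted p = 7.04e-06).

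Complement and epithelial defence genes fell in 13 of 14 tested members (24 on the list, the others too low to test) and rose in 0, with a median of -3.20 in KO and -1.68 in control cells. The interaction was lower in KO for 8 and higher for 0. C3, the central complement component, had 3.09, 2.95 and 3.7 CPM at 24 h and 43.9, 40 and 42.4 CPM at 0 h in KO cells, a log2 change of -3.70 ± 0.099 (adjusted p = 7.61e-40). Control cells had 18.3, 18.7 and 19.6 CPM at 24 h and 37.7, 34.5 and 34.1 CPM at 0 h. The KO level was thus slightly above the control level at 0 h and far below it at 24 h (interaction -2.79 ± 0.13, adjusted p = 2.2e-25), and at 72 h C3 averaged 2.22 ± 0.419 CPM in KO and 36.8 ± 3.15 CPM in control cells (SD, n = 3 each). C1s1, a protease of the classical pathway, had 0.213, 0.354 and 0.431 CPM at 24 h and 6.62, 7.58 and 7.41 CPM at 0 h (log2 -4.43 ± 0.27, interaction -2.11 ± 0.42, adjusted p = 9.5e-05). Lgals4, a galectin of gut and glandular epithelium, had 1.44, 1.77 and 1.29 CPM at 24 h and 48.8, 57.7 and 54.1 CPM at 0 h (log2 -5.15 ± 0.12, interaction -1.48 ± 0.18, adjusted p = 2.74e-09). None of these KO libraries overlapped between times.

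Interferon-stimulated genes moved in both directions, with 3 of 24 tested higher and 11 lower, against 30.0% and 29.7% of all genes tested. The count of lower members was 7 without the second KO 24 h library and 7 when only the compared groups entered the fit. Oasl2, an interferon-induced OAS-like protein, rose, at 7.66, 7.2 and 8.56 CPM at 24 h and 0.521, 0.679 and 0.796 CPM at 0 h (log2 3.53 ± 0.19), and Ifit2, another, fell, at 3.25, 3.42 and 3.26 CPM at 24 h and 9.95, 9.77 and 10.2 CPM at 0 h (log2 -1.59 ± 0.12). In the MHC class I list 6 of 15 rose and 4 fell, near the 30.0% and 29.7% of all genes tested. B2m, the light chain of MHC class I, had 199, 205 and 198 CPM at 24 h and 85.7, 85.2 and 81.9 CPM at 0 h in KO cells (log2 1.25 ± 0.033).

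Mitotic genes fell little in KO cells and more in control cells. Of 30 G2/M and mitosis genes, 23 fell and 2 rose in KO cells, with a median of -0.22, while all 30 fell in control cells, with a median of -0.55. The interaction was higher in KO for 29 of the 30, against 8.50% of all genes tested, and lower for 0. Mki67, the proliferation antigen Ki-67, had 440.5, 447 and 437 CPM at 24 h and 645, 618 and 617 CPM at 0 h in KO cells (log2 -0.51 ± 0.029), against 383, 425 and 408 CPM at 24 h and 712, 727 and 723 CPM at 0 h in control cells (log2 -0.83; interaction 0.32 ± 0.041, adjusted p = 4.98e-09). The KO libraries were thus below the control ones at 0 h and above them at 24 h. Aurkb, the kinase of the chromosomal passenger complex, had 57.9, 61.8 and 61.3 CPM at 24 h and 86, 76 and 85.3 CPM at 0 h in KO cells (log2 -0.45 ± 0.054, interaction 0.49 ± 0.075, adjusted p = 7.14e-07). Kif11, the spindle motor Eg5, had 156, 169.5 and 166 CPM at 24 h and 258, 242 and 235 CPM at 0 h (log2 -0.58 ± 0.039, interaction 0.39 ± 0.055, adjusted p = 6.8e-08). Prc1 and Cenpa, named after their values were seen as the members that rose, changed by 0.26 ± 0.036 and 0.13 ± 0.044 on the log2 scale, and the Cenpa libraries overlapped between times.

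The order of the genotypes turned again later in the time course. Mki67 averaged 142 ± 3.39 CPM at 48 h and 68.7 ± 0.498 CPM at 72 h in KO cells, against 293 ± 10.3 CPM at 48 h and 217 ± 2.75 CPM at 72 h in control cells (SD, n = 3 each), and no library of one genotype overlapped the other at these times. These later levels are given as description, with no test.

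CHR and CCAAT elements are the known binding sites through which the DREAM and MuvB complexes and NF-Y time mitotic genes. CHR, searched as TTTGAA on both strands, was in 19 of 24 promoter windows of the G2/M list (79.2%, against 12.1% of all windows), and CCAAT, also on both strands, in 79.2% against 37.6%. The list holds known mitotic genes and the motifs were picked as known elements of such genes, so these shares are description. Cdk1, the mitotic kinase, and Plk1, polo-like kinase, are shown with CHR matches in capitals; both were chosen after their values were seen, and the source and build are those named above.
Cdk1, chr10:69352863-69353162, minus strand: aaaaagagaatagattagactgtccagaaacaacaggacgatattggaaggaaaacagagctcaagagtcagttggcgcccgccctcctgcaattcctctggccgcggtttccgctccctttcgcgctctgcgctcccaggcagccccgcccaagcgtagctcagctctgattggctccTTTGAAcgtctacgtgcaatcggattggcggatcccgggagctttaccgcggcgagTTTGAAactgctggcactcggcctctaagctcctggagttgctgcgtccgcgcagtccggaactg
Plk1, chr7:122159185-122159484, plus strand: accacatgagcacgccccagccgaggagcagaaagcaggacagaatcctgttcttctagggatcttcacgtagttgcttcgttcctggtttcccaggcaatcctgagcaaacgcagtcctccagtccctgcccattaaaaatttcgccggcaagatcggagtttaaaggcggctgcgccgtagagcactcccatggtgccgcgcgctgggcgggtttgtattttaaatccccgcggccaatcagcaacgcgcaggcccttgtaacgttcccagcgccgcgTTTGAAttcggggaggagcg
The Cdk1 window holds a pair of matches, 71 and 15 bases before the start, and the Plk1 window 1 match, 30 bases after it. Cdk1 had 144, 139.7 and 147 CPM at 24 h and 174, 164 and 172 CPM at 0 h in KO cells (log2 -0.24 ± 0.035, against -0.65 in control cells; interaction 0.40 ± 0.049, adjusted p = 2.51e-09). Plk1 had 82.9, 85.1 and 83.4 CPM at 24 h and 88.6, 95.4 and 90.8 CPM at 0 h (log2 -0.13 ± 0.045, against -0.50; interaction 0.37 ± 0.064, adjusted p = 7.87e-06).

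S phase genes fell in both genotypes. Of 35 DNA replication genes 34 fell and 0 rose in KO cells, with a median of -0.56 in KO and -0.71 in control cells, and the interaction was higher in KO for 12. Cdc6, a loader of the replicative helicase, had 23, 22.4 and 20.1 CPM at 24 h and 44, 44.8 and 47.8 CPM at 0 h in KO cells (log2 -1.06 ± 0.070). Uhrf1, which couples replication to DNA methylation, had 109.7, 105 and 108 CPM at 24 h and 221, 208 and 223 CPM at 0 h (log2 -1.01 ± 0.037). Among CDK inhibitors, D cyclins and Myc, 3 of 18 rose and 12 fell. Cdkn2b, the p15 inhibitor that TGFβ is known to induce in epithelial cells, had 103, 101 and 106 CPM at 24 h and 48.5, 49.7 and 50 CPM at 0 h in KO cells (log2 1.07 ± 0.043, interaction 0.27 ± 0.061, adjusted p = 0.000838). Myc, which TGFβ is known to repress in many epithelial cells, rose here, with 126, 129.7 and 136 CPM at 24 h and 74.3, 65 and 70.4 CPM at 0 h in KO cells (log2 0.90 ± 0.041, interaction 0.25 ± 0.058, adjusted p = 0.000808). Of 24 tested p53 targets, 6 rose and 11 fell, against 30.0% and 29.7% of all genes tested. Gadd45a, a stress gene, had 42.8, 42.6 and 45.3 CPM at 24 h and 10.8, 11.8 and 9.89 CPM at 0 h (log2 2.01 ± 0.065).

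**Figure D3:**
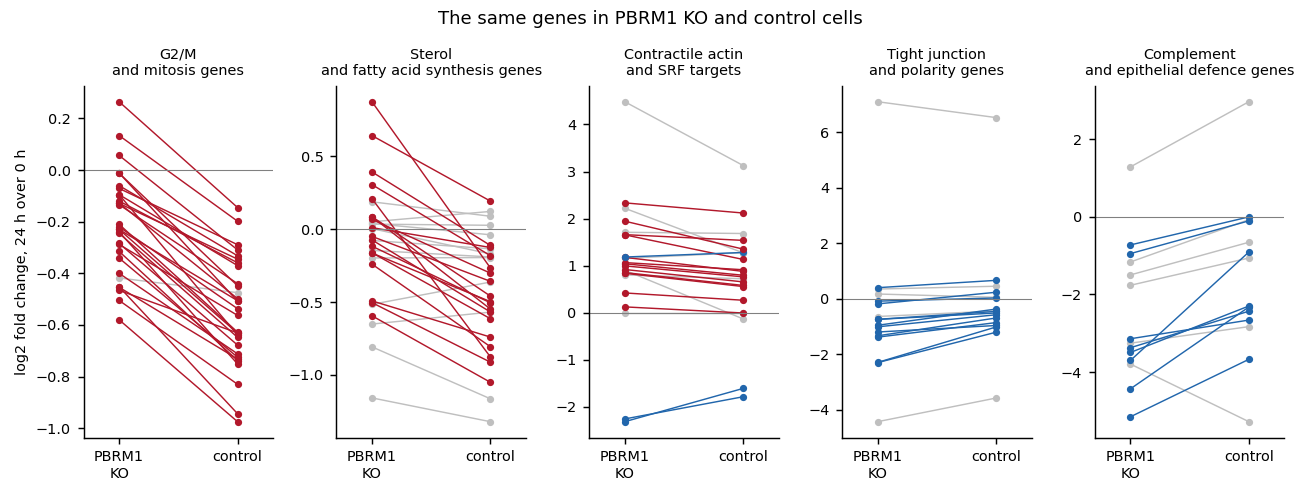
Log2 fold change from 0 h to 24 h of TGFβ1 for the tested members of 5 lists in PBRM1 KO (left) and control cells (right of each panel), 1 line per gene, red where the interaction was higher in KO, blue where lower and grey where it did not pass; the y axes differ. Lines slope down to control for 29 of 30 G2/M genes and 18 of 30 sterol genes with a higher interaction, and 12 of 17 tight junction and 8 of 14 complement genes have a lower one.

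Sterol and fatty acid synthesis genes, most of them targets of the SREBP factors, separated the genotypes. In KO cells 11 of 30 fell and 6 rose, with a median of -0.06, near the 29.7% lower and 30.0% higher of all genes tested. In control cells 24 fell and 3 rose, with a median of -0.36. The interaction was higher in KO for 18 and lower for 0, against 8.50% and 9.88% of all genes tested. Insig1, the sterol-induced retention protein of SREBP, had 73.3, 70.6 and 70.4 CPM at 24 h and 38, 41 and 38.1 CPM at 0 h in KO cells (log2 0.87 ± 0.053, adjusted p = 4.34e-22), against 55.6, 61.1 and 56 CPM at 24 h and 70.8, 69.8 and 67.1 CPM at 0 h in control cells (log2 -0.27; interaction 1.14 ± 0.073, adjusted p = 2.33e-19). The treated KO libraries were above both the untreated KO and the treated control ones, and overlapped the untreated control ones. Hsd17b7, an enzyme of cholesterol synthesis, had 32.8, 28 and 28.8 CPM at 24 h and 20.9, 18.3 and 18.4 CPM at 0 h in KO cells (log2 0.64 ± 0.068, interaction 0.45 ± 0.087, adjusted p = 7.22e-05). Scd1, a stearoyl-CoA desaturase, fell, at 3.7 CPM at 24 h and 8.28 CPM at 0 h (log2 -1.16 ± 0.13).

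Several stress and metabolic programmes were lower after the first day. NRF2 targets and glutathione genes fell in 18 of 23 tested members and rose in 5. Gsta4, a glutathione transferase, had 4.2, 4.43 and 4.56 CPM at 24 h and 78.1, 84.7 and 83.3 CPM at 0 h in KO cells (log2 -4.22 ± 0.084, interaction -0.59 ± 0.14, adjusted p = 0.00168); transferases have close paralogues, so their reads may be split. Gclc, the rate-limiting enzyme of glutathione synthesis, had 52.1, 53.6 and 51.1 CPM at 24 h and 189.9, 200.4 and 191 CPM at 0 h (log2 -1.89 ± 0.038, interaction -0.53 ± 0.053, adjusted p = 7.55e-12). Hypoxia and glycolysis genes fell in 21 of 28 and rose in 5. Egln3, an oxygen-sensing prolyl hydroxylase, had 33.7, 40.1 and 42.2 CPM at 24 h and 148, 164 and 140.5 CPM at 0 h in KO cells (log2 -1.97 ± 0.071), less of a fall than the -2.62 of control cells (interaction 0.65 ± 0.11, adjusted p = 9.02e-06). Hk2, a hexokinase, rose, with 290.1, 288 and 299 CPM at 24 h and 125, 112 and 126 CPM at 0 h (log2 1.27 ± 0.035). ATF4 and amino acid stress genes fell in 27 of 30 and rose in 3. Their interaction was lower in KO for 12 and higher for 2, against 9.88% and 8.50% of all genes tested. Psat1, an enzyme of serine synthesis, had 181, 191 and 195 CPM at 24 h and 755, 721 and 726 CPM at 0 h in KO cells (log2 -1.96 ± 0.030, interaction -0.17 ± 0.041, adjusted p = 0.0014). Nupr1, a stress-induced nuclear protein, rose, at 160.1, 154 and 159 CPM at 24 h and 51.8, 56.1 and 53.6 CPM at 0 h (log2 1.55 ± 0.040, interaction 0.62 ± 0.060, adjusted p = 2.21e-12).

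The secretory pathway rose together. Of 26 ER chaperones and secretory pathway genes, 24 rose and 1 fell in KO cells, with a median of 0.39 in KO and 0.28 in control cells. Their interaction was higher in KO for 12 and lower for 0, against 8.50% and 9.88% of all genes tested. Hspa5, the ER chaperone BiP, had 1108, 1107 and 1116 CPM at 24 h and 588, 581 and 587 CPM at 0 h in KO cells (log2 0.92 ± 0.024, interaction 0.26 ± 0.033, adjusted p = 1.06e-08). Herpud1, a factor of ER-associated degradation, was the 1 member that fell, at 47.7, 50.1 and 50.2 CPM at 24 h and 117, 116 and 114 CPM at 0 h (log2 -1.23 ± 0.044). Collagen crosslinking and folding enzymes, which work in or after the same compartment, rose in 12 of 16 tested members. Bmp1, a procollagen protease, had 369.8, 390.4 and 376 CPM at 24 h and 93.6, 94.3 and 89.8 CPM at 0 h (log2 2.03 ± 0.032, interaction 0.39 ± 0.045, adjusted p = 2.48e-10), and Plod2, a collagen lysyl hydroxylase, averaged 299 CPM at 24 h and 103 CPM at 0 h (log2 1.54 ± 0.038, interaction 0.42 ± 0.058, adjusted p = 5.81e-08). In arginine metabolism 6 of 15 rose and 4 fell, shares near the 30.0% and 29.7% of all genes tested. Ass1, which makes the precursor of arginine, had 35.9, 37 and 36.8 CPM at 24 h and 0.521, 0.94 and 0.447 CPM at 0 h in KO cells, against 8.64 CPM at 24 h and 0.0883 CPM at 0 h in control cells (log2 5.83 ± 0.12 in KO; interaction -0.68 ± 0.55, adjusted p = 0.473).

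SWI/SNF subunits had no common direction. Of 25 tested, Pbrm1 included, 11 rose and 3 fell, and the counts were 7 and 7 with library totals alone. Smarcd3, a tissue-variable subunit, rose (log2 1.10 ± 0.12), and Smarca2, the ATPase BRM, fell (log2 -0.73 ± 0.092). Arid2 and Brd7, the other subunits known from PBAF, chosen after their values were seen, changed by 0.37 ± 0.040 and 0.15 ± 0.044. Of 13 mitochondrially encoded mRNAs, 3 were called higher and 1 lower, with a median of -0.05, and library totals alone gave 0 higher and 5 lower. The higher count was also 0 without the third KO 0 h library. It was 1 without the third KO 24 h library, with edgeR's RLE scaling factors in place of TMM and with DESeq2's test. The lower count was 3 with no low-count filter and 3 with only the compared groups in the fit.

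The genes with the largest rises at 10 CPM or more included, besides those above, Adgra1, Klhl30, Lce1g, Angptl2 and Stab1. Adgra1, an adhesion G protein-coupled receptor, had 16.1, 14.9 and 16.5 CPM at 24 h and 0, 0 and 0.199 CPM at 0 h in KO cells; all its 0 h counts came from the third KO library, and its log2 change of 7.72 ± 0.26 was 11.17 without that library. Angptl2, an angiopoietin-like secreted protein, had 78.9, 79.4 and 83.5 CPM at 24 h and 1.3, 2.04 and 1.14 CPM at 0 h (log2 5.75 ± 0.093). Lce1g, a late cornified envelope gene, had 69.4, 72.2 and 72.2 CPM at 24 h and 0.99, 0.888 and 0.796 CPM at 0 h (log2 6.31 ± 0.14). Stab1, a scavenger receptor, had 20.5 CPM at 24 h and 0.427 CPM at 0 h (log2 5.56 ± 0.17). Lce1g belongs to a gene family, so its reads may be shared with relatives.

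Among the protein-coding genes with the largest falls at 10 CPM or more was Cyp2s1, a cytochrome P450 of epithelia. It had 4.52, 5.31 and 5.54 CPM at 24 h and 219, 243 and 219.7 CPM at 0 h in KO cells. Control cells had 22.4, 22.2 and 23.6 CPM at 24 h and 277, 249 and 244 CPM at 0 h. The log2 change of -5.48 ± 0.070 in KO cells (adjusted p = 2.4e-56) was a deeper fall than the -3.49 of control cells (interaction -1.98 ± 0.11, adjusted p = 1.79e-22). Cyp2c65, another P450, had 0.16, 0.354 and 0.123 CPM at 24 h and 24.7, 26.5 and 27.2 CPM at 0 h (log2 -6.90 ± 0.24). Mep1a, a brush-border metalloprotease, had 0.319, 0.531 and 0.123 CPM at 24 h and 27.9, 27.5 and 28.5 CPM at 0 h (log2 -6.39 ± 0.19). Muc5b, a secreted mucin, had 0.372, 0 and 0.246 CPM at 24 h and 17.1, 14.4 and 16.1 CPM at 0 h (log2 -6.19 ± 0.30; -6.97 without the first KO 24 h library). Dio3, which inactivates thyroid hormone, had 0.213, 0.236 and 0.123 CPM at 24 h and 16.9, 17.6 and 16.5 CPM at 0 h (log2 -6.41 ± 0.23); an antisense transcript overlaps it, and without strand the reads cannot be told apart. Arhgap40 had 0.213, 0.177 and 0.554 CPM at 24 h and 24.4, 23.1 and 24.1 CPM at 0 h (log2 -6.25 ± 0.19; -6.88 without the third KO 24 h library). The others were Cbln3, Sptssb, Mettl7b, Serpina1a and Itih2, between -6.75 and -5.19 on the log2 scale, with Cbln3 and Sptssb next after Cyp2c65 in size; Serpina1a has near-identical paralogues and is uncertain. At 48 and 72 h Cyp2s1 averaged 3.51 and 8.8 CPM in KO cells.

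By abundance, the most highly expressed genes that changed at least 2-fold were matrix, actin and membrane-skeleton genes. Besides Fn1, Thbs1, Myh9 and Fbln2, they included Clu, the secreted chaperone clusterin, with 6134, 6137 and 5991 CPM at 24 h and 1871, 1838 and 1827 CPM at 0 h in KO cells (log2 1.72 ± 0.023, against 1.93 in control cells; interaction -0.21 ± 0.031, adjusted p = 3.24e-07). Msn, moesin, which links actin to the membrane, had 2055, 2020 and 2025 CPM at 24 h and 799.6, 801 and 796 CPM at 0 h (log2 1.35 ± 0.023). Cald1, the actin-binding caldesmon, had 1512 CPM at 24 h and 666 CPM at 0 h (log2 1.18 ± 0.024).

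Among genes with at least 10 CPM in 1 of the 4 groups, the largest positive interaction was that of Dlc1. It had 28.4, 25.1 and 23.7 CPM at 24 h and 1.72, 2.3 and 1.24 CPM at 0 h in KO cells. Control cells had 27.2, 25.4 and 25.2 CPM at 24 h and 17.6, 15.7 and 14.4 CPM at 0 h. The log2 change was 3.88 ± 0.12 in KO and 0.70 in control cells (interaction 3.18 ± 0.16, adjusted p = 5.15e-24). KO cells thus started low and met the control level at 24 h. Akap12, a scaffold for protein kinase A, also started lower in KO than in control cells but ended higher, with 134, 136 and 140.5 CPM at 24 h and 14.1, 14.2 and 13.6 CPM at 0 h in KO cells. Control cells averaged 95.7 CPM at 24 h and 34.1 CPM at 0 h (interaction 1.8 ± 0.074, adjusted p = 9.66e-28). Abcb1a, a P-glycoprotein drug exporter, started alike in both lines and parted, with 48.4, 47.6 and 46 CPM at 24 h and 20, 16.8 and 18 CPM at 0 h in KO cells. Control cells had 17.7, 20 and 18.2 CPM at 24 h and 17.9, 20.7 and 18.4 CPM at 0 h (interaction 1.40 ± 0.097, adjusted p = 6.24e-18). Lpin3, a phosphatidate phosphatase, had 18.1, 17.3 and 18 CPM at 24 h and 2.19, 3.03 and 2.64 CPM at 0 h in KO cells. Control cells averaged 7.96 CPM at 24 h and 5.48 CPM at 0 h (interaction 2.22 ± 0.18, adjusted p = 3.95e-15). Npr3, a natriuretic peptide clearance receptor, averaged 21 CPM at 24 h and 1.54 CPM at 0 h in KO cells. Control cells averaged 6.95 CPM at 24 h and 1.97 CPM at 0 h (interaction 1.94 ± 0.25, adjusted p = 1.28e-08). Olr1 and Siglecg completed this group (interaction 1.59 and 1.74).

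On the lower side, Serpinb5, maspin, a serpin of mammary epithelium, had 2.13, 1.42 and 2.34 CPM at 24 h and 12.1, 11.4 and 12.5 CPM at 0 h in KO cells. Control cells had 8.01, 11 and 9.56 CPM at 24 h and 10.8, 14.6 and 12.4 CPM at 0 h. The log2 change of Serpinb5 was -2.61 ± 0.17 in KO and -0.40 in control cells (interaction -2.21 ± 0.21, adjusted p = 1.78e-12). Upk1b, a uroplakin of urothelium, had 0.426, 0.236 and 0.308 CPM at 24 h and 6.67, 7.31 and 7.81 CPM at 0 h in KO cells. Control cells averaged 7.52 CPM at 24 h and 40.3 CPM at 0 h (interaction -2.02 ± 0.31, adjusted p = 6.55e-07). Prl2c3, of the prolactin family, had 4.2, 2.77 and 4.5 CPM at 24 h and 16.4, 15.7 and 14 CPM at 0 h in KO cells. Control cells averaged 17 CPM at 24 h and 16.1 CPM at 0 h (interaction -2.09 ± 0.17, adjusted p = 1.28e-15); its paralogues make the count uncertain. Ttr, the thyroid hormone carrier transthyretin, had 1 count in all at 24 h and 8.91, 8.88 and 8.75 CPM at 0 h in KO cells, a ratio of 0.00217 (95% counting interval 5.5e-05 to 0.0122), against 1.21 CPM at 24 h and 14.7 CPM at 0 h in control cells. Kif12, a kinesin, had 2 counts in all at 24 h and 5, 5.17 and 4.08 CPM at 0 h in KO cells, a ratio of 0.00812 (95% counting interval 0.000978 to 0.0296), against 1.81 CPM at 24 h and 18.1 CPM at 0 h in control cells. Xpnpep2, an aminopeptidase, had 0.113 CPM at 24 h and 6.16 CPM at 0 h in KO cells. Control cells averaged 1.31 CPM at 24 h and 12.9 CPM at 0 h (interaction -2.35 ± 0.53, adjusted p = 0.000547).

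**Figure D4:**
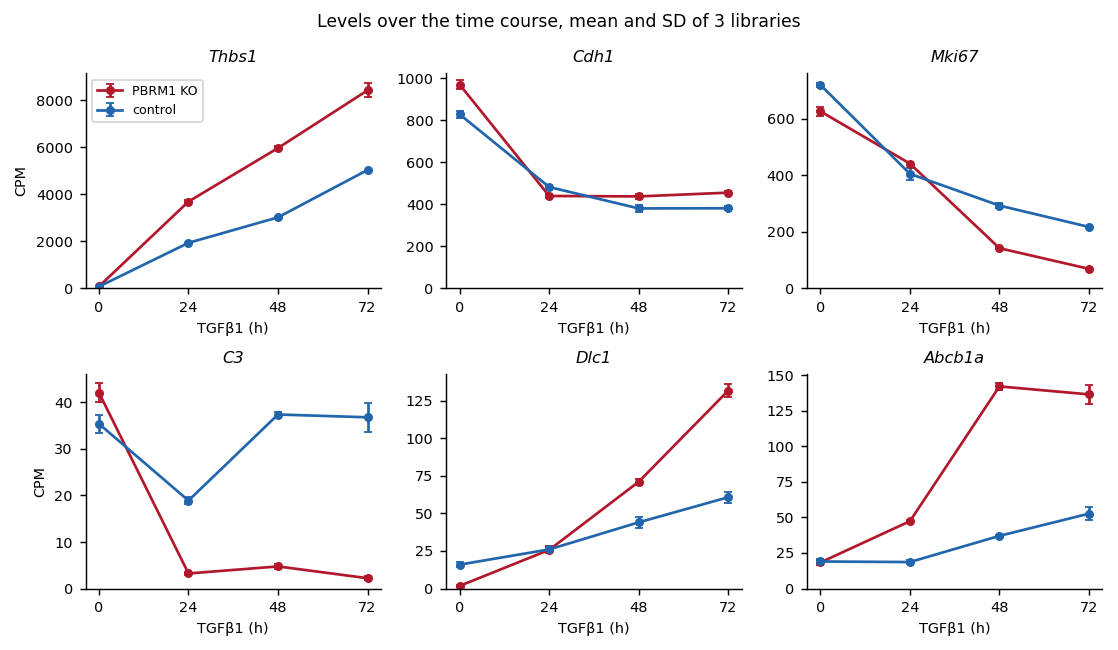
Mean CPM with SD (3 libraries per point) of 6 genes at 0, 24, 48 and 72 h of TGFβ1 in PBRM1 KO and control cells; the y axes start at 0. C3 is near 3.24 CPM in KO and 18.9 CPM in control cells at 24 h and stays apart, the Mki67 lines cross before 24 h and again between 24 and 48 h, and Dlc1 and Abcb1a end higher in KO cells.

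At 72 h the levels of some of these genes, given as description, were as follows. Thbs1 averaged 8418 ± 294 CPM in KO and 5029 ± 20.5 CPM in control cells at 72 h (SD, n = 3 each). Abcb1a averaged 136 ± 6.45 CPM in KO and 52.6 ± 4.39 CPM in control cells, and Dlc1 132 ± 4.59 and 60.7 ± 3.75 CPM. Cdh1, by contrast, averaged 455 ± 7.31 CPM in KO and 380.5 ± 8.65 CPM in control cells at 72 h, with the KO level above again.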

How the data were processed

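RNA-seq libraries of NMuMG cells were used as the deposited table of raw counts per gene, 24 libraries of 1 experiment by 54532 genes. The submitters' processing notes list HISAT2, DESeq2, Trim Galore 0.6.7, STAR 2.7.10a, edgeR and the build mm10, with no role or order. Strand and counting settings are not given in the sources used here, so overlapping genes and close paralogues are uncertain. Genes passing filterByExpr (edgeR 4.0.16, R 4.3.3; minimum count 10, minimum total 15) were kept, 14345 in all. TMM factors and quasi-likelihood fits used 1 coefficient per group over all 24 libraries (16 residual degrees of freedom), with two-sided tests and Benjamini-Hochberg adjustment over all genes at 0.05. Errors of log2 changes are standard errors. The scripts were tested on simulated data. With 3 libraries a group, the lowest p an exact permutation test allows is 0.1. CPM, computed from the deposited counts, divides by TMM-scaled totals.

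The genes, lists and cell markers were chosen with earlier results of these data known. Named genes are a fixed list of pathway genes, up to 12 per direction with the largest change at 10 CPM or more without overlap, up to 5 per list, up to 10 per direction with the largest interaction and the 10 most abundant with a 2-fold change; the text says which others were picked after their values were seen. Counting intervals are at 95% and, like the floor of 3 counts, cover counting error only. Promoter windows are RefSeq's (GRCm38.p6), and 98.3% of 54409 shared gene positions in the table equal those of GENCODE M21 on GRCm38. DESeq2 1.42.0 and other alternatives are described in the closing section. The other 36 libraries of the series were not used.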

Additional observations from a re-analysis of the deposited data

Results flagged for a closer look

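The first-day change differed between PBRM1 KO and control cells by the interaction test (edgeR's quasi-likelihood test, Benjamini-Hochberg adjusted p under 0.05) in 2637 genes and, among them, in the following genes. Values are the KO change minus the control change on the log2 scale, so a positive value means a higher change in KO cells. Groups of 3 libraries were not tested for outlying samples.

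Among pathway and cell-state genes the value was positive for Thbs1 (0.83), Ctgf (0.32), Mki67 (0.32), Cdkn2b (0.27), Myc (0.25), Krt7 (0.23), Cdh2 (0.17) and Pbrm1 (0.17). It was negative for Ocln (-0.64), Col1a1 (-0.46), Tgfbr1 (-0.41), Cdh1 (-0.36), Fn1 (-0.36), Vim (-0.25), Id2 (-0.21), Krt8 (-0.19) and Skil (-0.15). Krt7 averaged 108 CPM at 24 h and 69.8 CPM at 0 h in KO cells, against 1034 CPM at 24 h and 785 CPM at 0 h in control cells. Some of these calls did not hold when 1 library was left out. The Pbrm1 call was lost without any 1 of 8 libraries (adjusted p = 0.0542 to 0.13). It was also lost with library totals alone (adjusted p = 0.0861) and with no low-count filter (adjusted p = 0.11). The Cdh2 call was lost without the third KO 0 h library (adjusted p = 0.0774). The Skil call was lost without the first KO 0 h or the third control 0 h library (adjusted p = 0.0519 and 0.0571), and the Col1a1 call without any 1 of 5 libraries (adjusted p = 0.0569 to 0.127).

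Among protein-coding genes with at least 10 CPM in 1 of the 4 groups, the largest positive values were those of Dlc1 (3.18), Aqp1 (2.48), Lpin3 (2.22), Npr3 (1.94), Akap12 (1.8), Siglecg (1.74), Klhl30 (1.59), Olr1 (1.59), Dll4 (1.46) and Abcb1a (1.40). Aqp1, a water channel, averaged 0.12 CPM at 24 h and 1.35 CPM at 0 h in KO cells, against 0.382 CPM at 24 h and 23.8 CPM at 0 h in control cells, and its value was 1.54 (adjusted p = 0.532) without the second KO 24 h library. Klhl30 lost its call without the first or the third control 0 h library (adjusted p = 0.0721 and 0.0509).

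Under the same level limit, the most negative values were those of Ttr (-4.78), Kif12 (-3.41), C3 (-2.79), Mep1a (-2.78), Cyp2c65 (-2.49), Xpnpep2 (-2.35), Serpinb5 (-2.21), Prl2c3 (-2.09), Ranbp3l (-2.05) and Upk1b (-2.02). The values of Ttr, Kif12 and Ranbp3l rest on 1, 2 and 3 counts over the KO 24 h group, so their size depends on the prior count of the fit. Ranbp3l lost its call without any 1 of 5 libraries (adjusted p = 0.0571 to 0.107) and with DESeq2 (adjusted p = 0.0601).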

How the results depend on the processing

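The alternatives were edgeR's RLE scaling factors or library totals alone in place of TMM, no low-count filter and DESeq2's Wald test. A fit on only the groups compared, the replicate number as a block, and leaving out each library in turn were others. All 15 counts of called genes stayed within 1.5 times of their values under these. Leaving out 1 library at a time gave 8068 to 8212 changed genes in KO cells (8569 with all), 946 to 986 at least 2-fold higher (984), 1148 to 1183 at least 2-fold lower (1145) and 2170 to 2460 interactions (2637). The other alternatives gave 8274 to 8840 changed genes and 2280 to 2766 interactions.

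Library totals alone moved the split of calls. The share higher was 36.9% in KO (50.2% with TMM), 40.1% in control (50.4%) and 35.6% for the interaction (46.3%; 37.8% with no filter). mt-Nd6, mt-Cytb and mt-Nd5, called higher in KO cells with TMM (0.08, 0.07 and 0.07 on the log2 scale), changed sign, to -0.02, -0.03 and -0.03, and did not pass; the shift of the median of all genes by that scaling, to -0.104, is of the size of these changes. Among 248 named genes, the KO call moved under some alternative in 14 and the interaction call in 45. Counts of some lists moved by over 1.5 times, or to or from 0. Medians of some lists moved by at least the median standard error of their members. The cause was not tested.

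Little pairing of samples by replicate number was seen. Same-numbered libraries of different groups at 0 and 24 h, within and between genotypes, had correlations of -0.016 to 0.042. The highest were those of control 24 h with control 0 h libraries (0.031, 0.031 and 0.042). With the number as a block, 8635 genes changed in KO cells, 8568 in control cells, and 2754 interactions passed.

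Depth limits genes with few counts at 1 time, such as Ttr and Pdgfrb. Without untreated cells at 24 h, TGFβ1 and time in culture cannot be told apart, and the 3 cultures of 1 KO line do not show how other PBRM1 KO lines would respond.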
